A study of Mus musculus with 3 samples.

Results

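Among immune cells sorted from mouse melanoma grafts, macrophages that carried RNA of the complement component C1q together with Pf4, Vcam1 or Ccl8 were examined. A cell was taken when its raw counts of C1qa, C1qb and C1qc summed to at least 10 and those of Pf4, Vcam1 and Ccl8 to at least 3. It also had at most 1 count each of the T cell genes Cd3d, Cd3e and Cd3g together, of the NK cell genes Ncr1 and Klrb1c together, and of the division genes Mki67, Top2a, Birc5 and Ube2c together. These limits were met by 132 of 43730 cells, with 43 in the 4-month library, 19 in the 12-month one and 70 in the 20-month one, and they are called Pf4 Vcam1 Ccl8 macrophages here. The cells that met the same limits but had 2 or fewer counts of the selecting genes, 1277 in all (605, 183 and 489), are called other C1q macrophages and served as the reference.

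The 3 libraries came from mice aged 4, 12 and 20 months that had all received 500000 cells of YUMM1.7 under the skin, a transplantable mouse melanoma line, with 7 mice per age. Tumours were taken on day 18 and broken up by DNase I with collagenase D. Viable cells stained for CD45.2, a form of the CD45 protein that leukocytes display, were then isolated by sorting. No other treatment or allele is named for any age group, and strain and sex are not given in the sources used here. Each age was 1 PIP-seq 3′ library, whether the 7 mice were pooled is not stated, and no difference between ages has a replicate check.

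Macrophages in tumours arise from blood monocytes that enter the tissue and from cells already resident there. C1q, which starts the classical complement cascade, is made largely by tissue macrophages and marks many macrophages of mouse and human tumours. Pf4 encodes platelet factor 4 (CXCL4), a chemokine best known from platelet granules that many resident macrophages also express. Vcam1 encodes an adhesion molecule that binds the integrin VLA-4 on leukocytes, and Ccl8 encodes a chemokine of the monocyte chemoattractant family.

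In GENCODE M21 on GRCm38 Pf4 (ENSMUSG00000029373.7) lies on the plus strand of chromosome 5 from 90772435 to 90773383, Ccl8 (ENSMUSG00000009185.2) on the plus strand of chromosome 11 from 82115185 to 82116799, and Vcam1 (ENSMUSG00000027962.14) on the minus strand of chromosome 3 from 116109949 to 116129688. The 250 bases before the start of 2 selecting genes are shown because the cells were chosen on their RNA and because the letters in capitals are cores read by PU.1-type and MAF-type factors of macrophages. The sequences are from RefSeq on GRCm38.p6, plus strand, at chr5:90772185-90772434 for Pf4 and chr11:82114935-82115184 for Ccl8, and capitals mark GAGGAA or TGCTGA on either strand (TTCCTC and TCAGCA in reverse), with no overlap between them.
Pf4: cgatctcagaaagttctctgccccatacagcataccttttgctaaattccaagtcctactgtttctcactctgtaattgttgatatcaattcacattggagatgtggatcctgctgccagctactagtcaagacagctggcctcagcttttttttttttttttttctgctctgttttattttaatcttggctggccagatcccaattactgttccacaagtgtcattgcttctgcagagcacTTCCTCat
Ccl8: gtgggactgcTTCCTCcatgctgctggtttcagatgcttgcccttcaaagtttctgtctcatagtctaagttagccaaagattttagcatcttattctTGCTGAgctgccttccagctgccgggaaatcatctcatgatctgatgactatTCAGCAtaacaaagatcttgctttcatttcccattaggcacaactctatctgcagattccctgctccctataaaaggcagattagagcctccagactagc
The Pf4 window held 1 match of the ETS-type letters, 8 bases before the start and on the minus strand. The Ccl8 window held the same letters 240 bases before the start and the MAF-type letters at 152 and 100 bases. Over 32851 mouse promoters, 23.3% held GAGGAA and 16.1% held TGCTGA in windows of this length. Of the 15 genes named below for the largest excess in these macrophages, 11 had a promoter in the table, of which 7 held the first and 3 the second. A gene was counted when any of its promoters held the letters, while the percentages are per promoter, so the 2 are not like for like. A match is a description of letters and not of a bound site.

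The selected cells carried C1q well above the limit. Their median C1q count was 94, 87 and 103 at 4, 12 and 20 months, against 44, 44 and 49 in other C1q macrophages, at medians of 6516, 6357 and 6806.5 total counts per cell against 7063, 6992 and 6724. Only 2 of the 132 had fewer than 30 C1q counts. Just inside the limit for Pf4, Vcam1 and Ccl8 were 29 cells with a sum of 3, and just outside it 51 cells with a sum of 2. Just below the C1q limit, at 5 to 9 counts, 6 cells met the other criteria.

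Pf4 was the gene that brought most cells in. Of the 132 cells, 63 (47.7%) reached 3 counts of Pf4 alone, 16 (12.1%) of Vcam1 alone and 10 (7.58%) of Ccl8 alone. A further 28 (21.2%) reached 3 counts of 2 or 3 of the genes, and 15 (11.4%) only by the sum. Levels are given as CPM, counts per 1000000, where a gene's counts are summed over the selected cells of a library and divided by all counts of those cells, with 95% exact Poisson intervals that cover counting error only. Pf4 stood at 650.2 (563 to 748), 635 (508 to 784) and 665 (596 to 739) CPM at 4, 12 and 20 months. For Vcam1 the levels were 281 (224 to 347), 369 (274 to 487) and 231 (192 to 277). Ccl8 had 201 (154 to 259), 702 (568 to 858) and 229 (189.8 to 275), highest in the 19 cells of 12 months, where 1 cell gave 34.7% of its counts and only 7 cells had any. These levels follow from the selection and are a description.

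The levels of the selecting genes in cells split on 1 of them are given as a description, since the rule used all 3. Over all 1409 C1q macrophages of the 3 libraries, Vcam1 stood at 216 (182 to 255) CPM in the 90 cells with 3 or more Pf4 counts and at 13.5 (11.1 to 16.2) in the 1147 with none. Ccl8 stood at 298 and 4.37 in the same cells. In the 39 cells with 3 or more Vcam1 counts Pf4 was at 648 (554 to 753), against 49.3 (44.9 to 54) in the 1274 without. The cells with 3 or more counts of any of these genes all met the rule, so these values carry no evidence beyond it.

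With every cell thinned to 3500 counts, which left out none, Pf4 was seen in 76.7%, 63.2% and 84.3% of the selected cells at 4, 12 and 20 months, against 1.29%, 1.73% and 2.81% of T cells. T cells here are cells with at least 3 Cd3 counts and fewer than 10 C1q counts, 26594 in all, and serve as cells that should lack macrophage RNA. Without thinning the selected cells had Pf4 in 90.7%, 94.7% and 91.4%, and median counts in T cells were 6255.5, 7002 and 6358. Vcam1 was seen in 55.8%, 57.9% and 45.7% after thinning and Ccl8 in 23.3%, 36.8% and 25.7%, with at most 1.11% in T cells. Only 0.253%, 0.203% and 0.218% of T cells reached the sum of 3.

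The label was set beside markers. All 4 of the listed markers that did not serve in the selection were higher than in other C1q macrophages in every library. Cd81, a tetraspanin of the cell surface, stood at 617 (532 to 712), 554 (436 to 694) and 649 (581 to 723) CPM against 90.7 (82.1 to 99.9), 131 (113 to 153) and 140.0 (128 to 153), which is 6.81, 4.21 and 4.64 times as high. Cd63, a tetraspanin of late endosomes and lysosomes, was 5.07, 5.45 and 5.47 times as high, at 782, 746 and 967 against 154, 137 and 177. Hpgds, which makes prostaglandin D2, was at 261, 325 and 267 against 61.5, 70.3 and 77.5. Apoe, the lipid carrier apolipoprotein E, was at 8189, 7039 and 9623 against 2046, 2732 and 3572, and at 253, 399 and 523 in T cells. The selection split the same cells, and the markers were chosen with earlier results of these data known. These ratios are therefore a description and not a check of the label.

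General macrophage genes were only in part at similar levels in both groups. Csf1r, the receptor of the macrophage growth factor CSF1, stood at 330.1, 288 and 341 CPM against 289, 286 and 349.9. Of 7 macrophage identity genes only Adgre1, which encodes F4/80, was 1.5-fold or more higher in all 3 libraries, at 307, 244 and 328 against 93.8, 116 and 135. Under the wider rule described below for the shares, 2 of the 7 were higher. Mertk, whose levels are given below, passed that fold at 4 and 12 months but not at 20. The transcription factor Maf was 4.38, 4.70 and 3.30 times as high, at 558, 650.0 and 628 against 127, 138 and 189.9. The plot of marker levels by group shows both patterns.

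**Figure D1:**
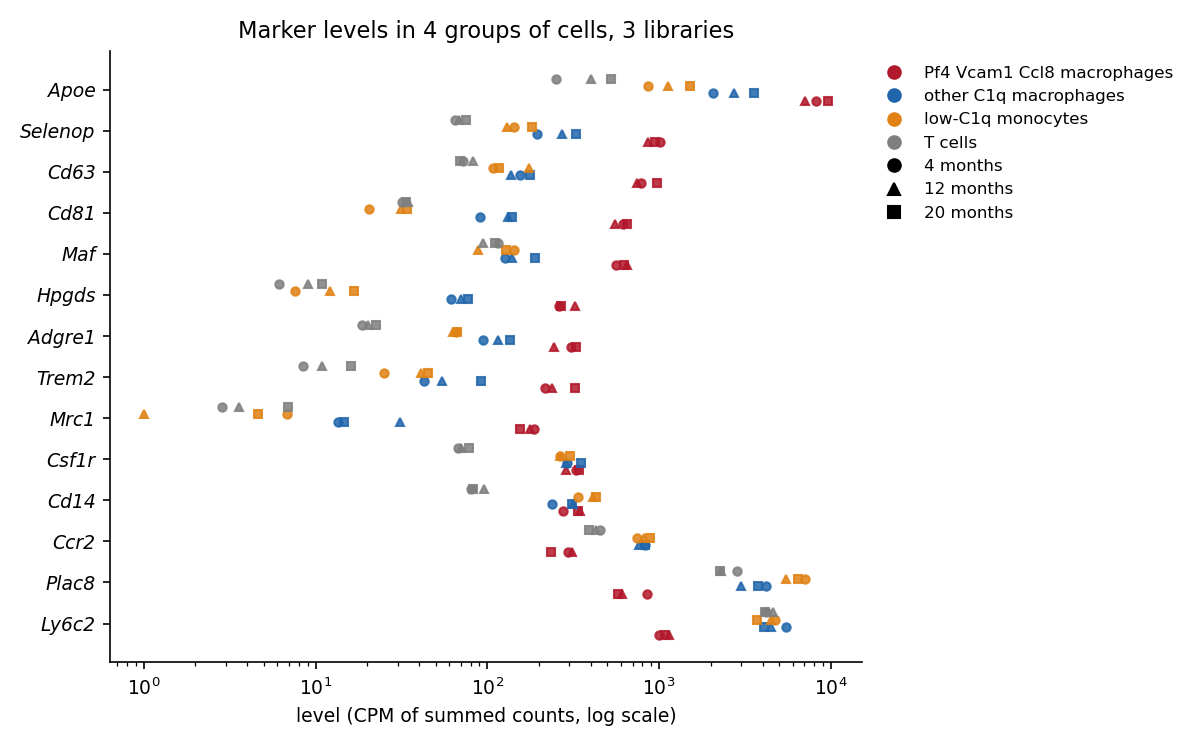
Levels of 14 genes (CPM of summed counts, log axis) in Pf4 Vcam1 Ccl8 macrophages, other C1q macrophages, low-C1q monocytes (at most 2 C1q counts and at least 5 of Ly6c2, Vcan and F13a1 together) and T cells. Each point is 1 library; Apoe to Mrc1 lie highest in the selected cells, Csf1r and Cd14 lie together in the myeloid groups, and Ccr2, Plac8 and Ly6c2 lie lowest in the selected cells.

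Most markers of other cells were at 0 or near the level of the reference. The 6 T cell markers, 3 of them limited by the rule, summed to 402.7, 509.6 and 456.9 CPM in the selected cells and 412.9, 567.6 and 457.9 in other C1q macrophages, against 5306, 5151 and 4949 in T cells. Of 7 platelet markers, Tubb1, Gp1ba, Itga2b, Gp1bb and Treml1 were at 0 in every selected cell, and the list summed to 0, 7.39 and 1.96 CPM. Among melanoma markers Tyrp1, Dct, Sox10 and Mlana were at 0, and among B cell markers Pax5 and Cd79a. Cd79b, a further B cell marker, stood at 66, 51.7 and 43.1 CPM against 20.1, 20.4 and 26.4, and its part in the results was not tested. Neutrophil markers summed to 85.8, 103 and 88.3 against 69.9, 88.4 and 83.4, NK cell markers to 314, 236 and 165 against 333, 255 and 146, and red cell markers to 69.3, 22.2 and 9.81. Endothelial, dendritic cell and mast cell lists summed to at most 44.3 CPM in any library, with Egfl7, Emcn, Tek, Cldn5, Zbtb46 and Mcpt8 at 0. Fibroblast markers summed to 6.60, 0 and 68.6 CPM, the last mostly from Col3a1, of which 1 cell gave 87.5%. Scrublet placed 0, 1 and 1 of the selected cells among the 6% of highest doublet score in their library, and none of their barcodes occurred in another library, although 18 barcodes over all cells did.

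The first comparison set the selected cells against other C1q macrophages across all genes. Among 6202 genes of at least 20 CPM, 160 (2.58%) were 1.5-fold or more higher in all 3 libraries and 141 (2.27%) lower, with the genes of the rule left out. Under the wider rule described below for the shares, which allows more Cd3 counts, 2.29% were higher and 1.4% lower. Among 813 genes of at least 200 CPM, 21 (2.58%) were higher and 25 (3.08%) lower. Since the selection split the same cells, these counts are a description and carry no test. Higher genes included Mrc1, Selenop, Apoe, Trem2, Ctsb and Ccl7, and lower ones Ly6c2, Plac8, Ccr2 and Ciita.

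Receptors and secreted factors of resident-type macrophages were partly present. Mrc1, the mannose receptor CD206, stood at 188 (142 to 244), 177 (114 to 264) and 155 (123 to 193) CPM against 13.5 (10.3 to 17.3), 31 (22.2 to 42) and 14.7 (10.9 to 19.4), or 13.9, 5.72 and 10.6 times as high. Selenop, a secreted selenium carrier, was at 1017, 864 and 949 against 195, 273 and 329. Gas6, a bridging ligand for dying cells, was at 26.4, 44.3 and 27.5 against 1.33, 3.02 and 1.76, from 5, 5 and 8 cells with a count. Of 13 such genes 4 could be compared, and 2, Mrc1 and Selenop, passed in all 3 libraries, against 2.58% of all genes. Lyve1, Timd4 and Fcna, which mark resident macrophages of several tissues, were at 0 in every selected cell. With no count among 302972, 135389 and 509913, levels of up to 9.90, 22.2 and 5.88 CPM are allowed by a count of 0, taken as 3 counts of each total.

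Lipid genes split between a few high members and many similar ones. Besides Apoe, Trem2, a receptor for lipids and apoptotic cells, was 5.08, 4.34 and 3.54 times as high, at 218 (168 to 277), 236 (162 to 334) and 324 (276 to 377) CPM against 42.9 (37.1 to 49.4), 54.4 (42.6 to 68.5) and 91.3 (81.4 to 102). Of 15 lipid handling genes compared, 3 were higher in all libraries and 1 lower, against 2.58% and 2.27% of all genes. Nr1h3, which encodes the sterol sensor LXR alpha, was the third higher one. Apoe was already a listed marker of the selected cells, so the count of 3 is a description. The list had medians of log2 0.27, 0.47 and 0.38 against −0.02, 0.02 and −0.02 over all genes compared. Npc2, a lysosomal cholesterol carrier, stood at 1746, 1307 and 1561 against 1595, 1535 and 1692, and Tyrobp, the adaptor of TREM2, at 1961, 1809.6 and 2034 against 2139, 1938 and 2118. Both were within 1.5-fold of the reference, so the excess of Trem2 was not shared by its adaptor.

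Tetraspanins showed the same split. Of 11 compared, 5 were higher in all 3 libraries, against 2.58% of all genes. Beside Cd63 and Cd81 these included Tspan4, at 66, 36.9 and 54.9 CPM against 13.7, 15.1 and 17.9, and Tspan32, at 85.8, 96 and 84.3 against 42.2, 48.4 and 49. Cd63 and Cd81 were already listed markers of the selected cells, so the count of 5 is a description. Cd53, a tetraspanin of all leukocytes, was at 848, 591 and 686 against 739, 648 and 712 all within 1.5-fold. Cd63-ps, a pseudogene copy of Cd63 whose reads may be shared with it, was also higher, and its own level is uncertain.

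Of 18 lysosomal genes 3 were 1.5-fold or more higher in all libraries, against 2.58% of all genes. The list had medians of log2 0.63, 0.56 and 0.44. The protease Ctsb stood at 3509, 2548 and 2812 CPM against 1368, 1131 and 1391 and the asparaginyl endopeptidase Lgmn at 3687, 3021 and 3663 against 1861, 1626 and 2033. Ctss, the cathepsin that trims the invariant chain, was at 9565, 8088 and 9825 against 8631, 7688 and 8759, so the excess was uneven within the list.

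Of 7 eicosanoid genes compared, 3 were higher in all libraries and none lower. Of 7 complement genes other than C1q 2 were higher and 1 lower. Over all genes these shares were 2.58% higher and 2.27% lower. Hpgds, among the 3 higher eicosanoid genes, was already a listed marker of the selected cells, so that count is a description. Ptgs1, the constitutive cyclooxygenase upstream of Hpgds, stood at 119, 66.5 and 100.0 CPM against 14.8, 12.8 and 15.9. Tbxas1, thromboxane synthase, was at 195, 162 and 159 against 99.3, 99 and 102, while the leukotriene gene Alox5ap, which did not pass, was at 403, 339.8 and 353 against 583, 571 and 625. C3ar1, the receptor for the C3a fragment, was 2.52, 2.36 and 2.09 times as high and C5ar1 was 1.94, 1.59 and 1.80 times as high. Complement C3 itself was lower, at 26.4, 36.9 and 15.7 against 44.2, 62.7 and 71.3.

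Iron genes completed the higher groups. Of 7 iron and heme handling genes compared, 4 were higher in all libraries, against 2.58% of all genes. Among them was Slc11a1, the phagosomal iron transporter, at 218, 199 and 204 CPM against 116, 80.1 and 119. Another was the biliverdin reductase Blvrb, at 135, 133 and 229 against 77.9, 74.8 and 97.8. The ferritin heavy chain Fth1 was at 8773, 7999 and 9778 against 8876, 8636 and 9947, the same within 1.1-fold in each library.

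Of 12 chemokine genes compared, Ccl7, Ccl12 and Cx3cr1 were higher in all libraries and Ccr2 was lower, against 2.58% and 2.27% of all genes. Ccl7, a ligand of CCR2 from the same family as Ccl8, was 4.63, 4.54 and 4.33 times as high, at 1069 (956 to 1192), 1219 (1039.8 to 1419.5) and 753 (679.6 to 832) CPM against 231 (217 to 246), 268 (241 to 298) and 174 (160.1 to 188). Ccl12 was at 1726, 1721 and 1524 against 809, 701 and 964, and Ccl2 at 898, 509.6 and 902 against 655, 571 and 497, which was lower at 12 months. Ccl2, Ccl7, Ccl8 and Ccl12 are similar in sequence, and how reads matching several of them were counted is not given in the sources used here. Ccr2 ran the other way, at 294, 310.2 and 235 against 823, 760.3 and 829. Cx3cr1, the fractalkine receptor, was at 244, 259 and 273 against 144, 160.2 and 181.

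Monocyte genes were the lowest group. Ly6c2, the antigen of inflammatory monocytes, stood at 1003 (894 to 1123), 1145 (972 to 1339.9) and 1086 (998 to 1181) CPM against 5441 (5374 to 5509.8), 4476 (4363 to 4592) and 4088 (4020.5 to 4157), and other C1q macrophages were 5.42, 3.91 and 3.76 times as high. Plac8 was at 852, 606 and 577 against 4188, 3010.1 and 3772, and Chil3, a chitinase-like protein of monocytes, at 42.9, 7.39 and 25.5 against 149, 83.1 and 167. Of 7 monocyte markers compared, 4 were lower in all libraries and none higher, against 2.27% and 2.58% of all genes. The levels in the selected cells lay below those of T cells as well, where Ly6c2 was at 4167, 4610.1 and 4120.1 and Plac8 at 2851, 2279 and 2267.

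Genes of antigen presentation and inflammation had lower levels too. The MHC class II gene H2-Aa stood at 4802, 5924 and 3895 CPM against 7152, 8328 and 6547. Its regulator Ciita was at 33, 29.5 and 17.7 against 79, 85.4 and 77.8 and the peptide loading gene H2-DMb1 at 482, 584 and 422 against 832, 939 and 745, the 2 of 8 such genes that passed in all libraries. All 8 lay below the reference in every library. Over all genes 2.27% passed as lower. Under the wider rule 6 of the 8 were lower, against 1.4% of all genes. Il1b, the inflammatory cytokine, was at 472, 332 and 449 against 1346, 1277 and 1197, and Il1r2, its decoy receptor, at 26.4, 7.39 and 15.7 against 159, 98.2 and 123. Of 8 inflammatory cytokine genes 2 passed as lower and none as higher, against 2.27% and 2.58% of all genes. With the wider rule 4 of these genes were lower and none higher.

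The counts of the remaining lists are read against the 2.58% of all genes that were higher in all 3 libraries and the 2.27% that were lower. Of 15 interferon response genes, 12 hypoxia and glycolysis genes and 7 efferocytosis genes (uptake of dying cells) none passed in either direction. Under the wider rule 2 efferocytosis genes were higher and 1 hypoxia and glycolysis gene was lower. Among 10 secreted growth and matrix factors 2 were higher and 2 lower, and among 11 macrophage transcription factors and 12 adhesion genes 1 was higher and 1 lower in each list. Of 12 cytokine and growth factor receptors, 8 ligands and receptors for T cells and 11 immediate early genes, which respond to tissue handling, 1 in each was lower and none higher. With the wider rule 1 cytokine and growth factor receptor was higher and none lower. None was then lower among ligands and receptors for T cells, immediate early genes, transcription factors and secreted factors. Their other counts, and both counts of the adhesion genes, were the same.

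The 15 genes with the largest excess over the libraries were Fcrls, Psd3, Cela1, Mrc1, Cd63-ps, Ptgs1, Cd63, Cadm1, Olfml3, Ccl7, Cd81, Hebp1, Prune2, Pon3 and Trem2. Fcrls, a scavenger receptor-like gene known from microglia, led them at 29.7, 36.9 and 72.6 CPM against 1.99, 0.756 and 2.94, with a count in 7, 4 and 18 selected cells. Olfml3, a secreted matrix protein also known from microglia, was at 158, 140.3 and 184 against 24.3, 29.5 and 41.4, and the adhesion molecule Cadm1 at 218, 140.3 and 214 against 33.4, 23.4 and 43.7. Il1r2, Plac8, AA467197, Ly6c2, Ly6i, Ass1, Gpr141, Chil3, Napsa and A530064D06Rik were the 10 lowest. The plot of ratios gives their values in each library; that each gene stands on 1 side of 0 was fixed by the way they were chosen.

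**Figure D2:**
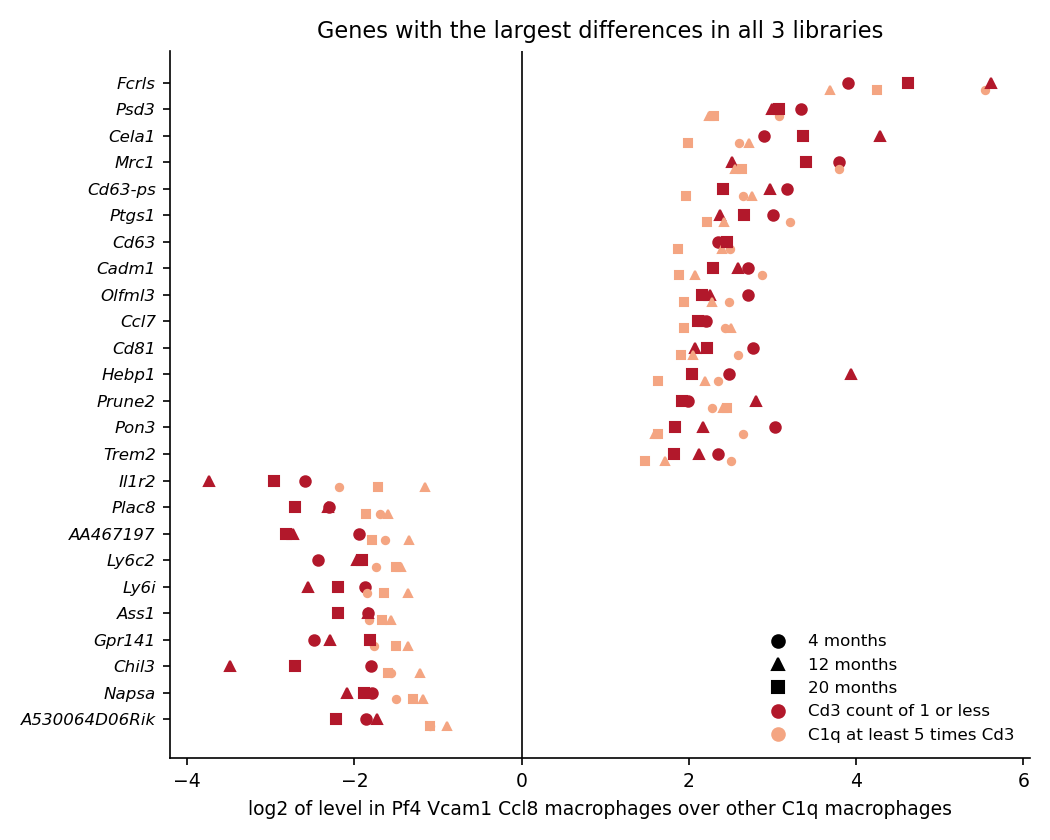
Log2 ratio of the level in Pf4 Vcam1 Ccl8 macrophages over other C1q macrophages for the 25 genes with the largest differences; symbols give the library, dark red the rule with at most 1 Cd3 count and light red a wider rule with C1q at least 5 times Cd3. The genes were chosen to lie on 1 side of 0 in the 3 libraries under the first rule, and the largest ratio is that of Fcrls.

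The same genes followed the selecting counts below the limit. Over C1q macrophages with 0, 1, 2, 3, 4 to 5, 6 to 9 and 10 or more counts of Pf4, Vcam1 and Ccl8 (1059, 167, 51, 29, 22, 45 and 36 cells), Apoe stood at 2409, 3611, 5555, 7587, 8351, 8499.8 and 10310.5 CPM. Ly6c2 ran down, at 5046, 4157, 2237, 1282, 1187, 994 and 912. Most of the change in both lay between 0 and 3 counts, so cells with 1 or 2 counts stood between the groups. Mrc1 was at 13, 28.1, 45.1, 178, 123, 166 and 190.4, and H2-Aa at 7261, 6387, 6192, 5292, 5828, 4517 and 3032, lowest in the cells with 10 or more counts. In the 12 cells with fewer than 10 C1q counts that met the other criteria, Apoe was at 1026 and Hpgds at 0, while Cd63 was at 2027 and Arg1, arginase, at 345.

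**Figure D3:**
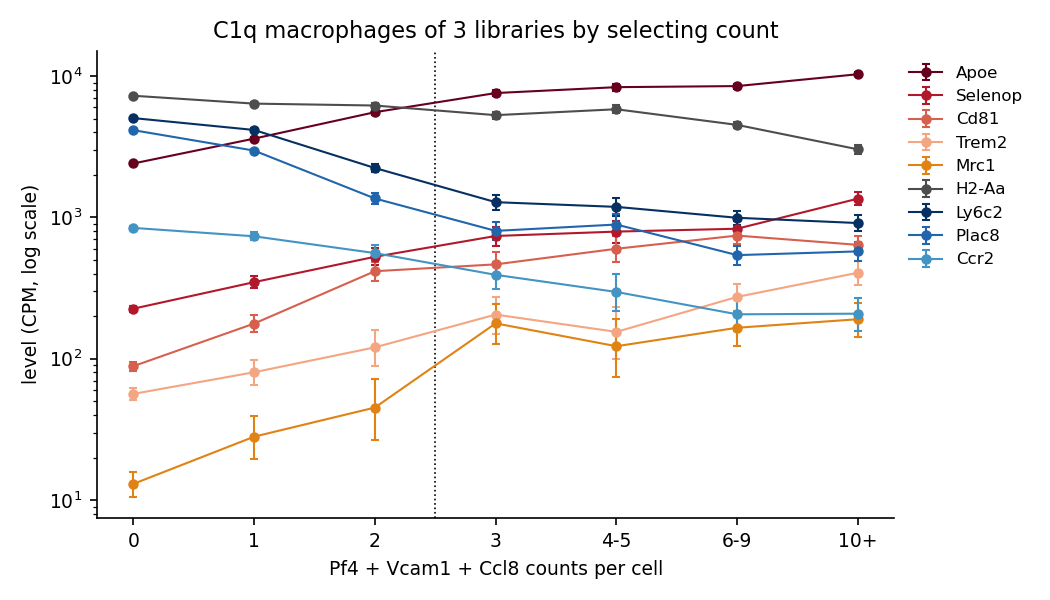
Levels (CPM, log axis) of 9 genes in C1q macrophages of the 3 libraries together, by the sum of Pf4, Vcam1 and Ccl8 counts per cell; the dotted line is the limit of 3 and bars are 95% exact Poisson intervals for counting error. From 0 to 3 counts Apoe, Selenop, Cd81, Trem2 and Mrc1 go up and Ly6c2, Plac8 and Ccr2 go down, with smaller steps above 3 for most of them.

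Levels among the selected cells varied with the gene that brought them in. Trem2 stood at 319 (270.2 to 375) CPM in the 63 cells with Pf4 alone and at 154 (91.5 to 244) in the 16 with Vcam1 alone. Ccr2 followed, at 382 (328 to 442) with Pf4 alone, 85.8 (41.1 to 158) with Vcam1 alone and 62.5 (17 to 160.0) with Ccl8 alone. The MHC gene H2-Aa was at 4412, 6288 and 3967 in the same order, highest in the Vcam1 cells. Ccl7 was at 858, 1021 and 1703, and Ccl2 at 815, 935 and 1749, both highest in the 10 Ccl8 cells. Ly6c2 was low in all 3, at 1069.8, 1235 and 828. Cells of all libraries were joined for these values, and no test was made.

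The second comparison was of their share by age. Among all cells they made up 0.299% (0.216 to 0.402), 0.13% (0.0781 to 0.202) and 0.477% (0.372 to 0.602) at 4, 12 and 20 months, with 95% exact binomial intervals. Among C1q macrophages they made up 6.64% (4.84 to 8.83), 9.41% (5.76 to 14.3) and 12.5% (9.89 to 15.6). The difference from 4 months in the second share was 2.77 points (−1.19 to 7.87) at 12 months and 5.89 points (2.57 to 9.32) at 20 months, with Newcombe intervals. The interval of the 12-month difference includes 0 and that of the 20-month difference does not, which covers counting error within these libraries only. With the selecting limit put on Vcam1 and Ccl8 alone, the 20-month difference was 2.08 points.

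The Cd3 limit bears on the first share. Cells with at least 10 C1q counts and a sum of 3 numbered 183, 337 and 617, and their median Cd3 count was 2, 5 and 4, so that 33.9%, 6.53% and 14.1% of them passed the limit of 1 count. The median Cd3 count over all cells was 3, 10 and 7. With C1q at least 5 times Cd3 in place of that limit, chosen after the data had been seen, 698 cells met the rule (117, 183 and 398). They then made up 0.813% (0.673 to 0.973), 1.25% (1.08 to 1.44) and 2.71% (2.45 to 2.99) of all cells, so the order of 4 and 12 months turned round. Their share of C1q macrophages under that rule was 7.07% (5.88 to 8.42), 12.2% (10.6 to 14) and 15.8% (14.4 to 17.3). The second share was thus higher at 20 than at 4 months under both rules, and the plot of shares by age sets them side by side. The cells of the wider rule were deeper, with medians of 8079, 11017 and 9577 total counts against 6516, 6357 and 6806.5 under the first. Their T cell markers summed to 662, 926 and 764 CPM. The part of depth or of T cell RNA in the shares under the wider rule was not tested.

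**Figure D4:**
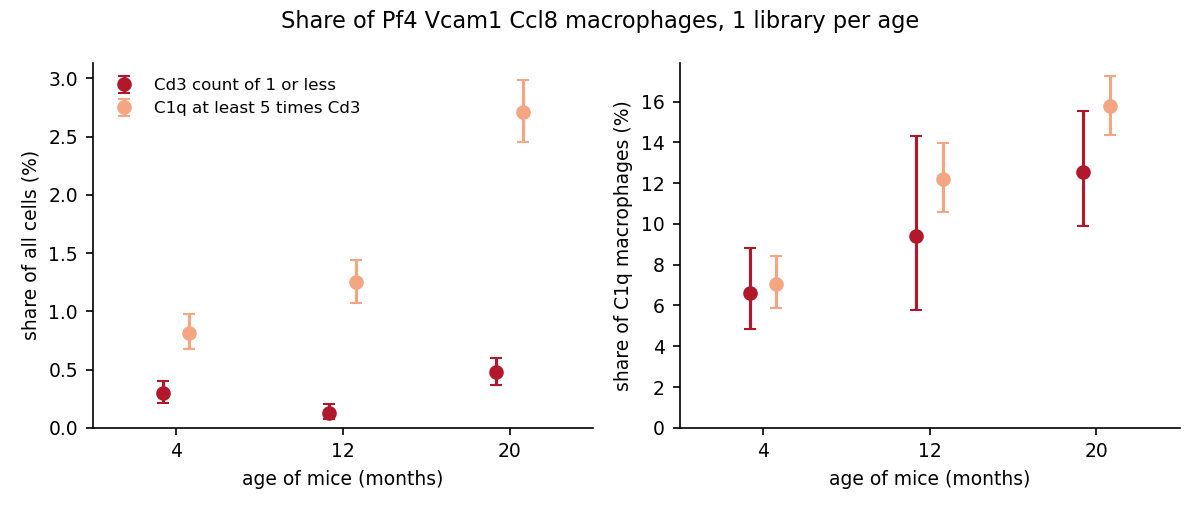
Share of Pf4 Vcam1 Ccl8 macrophages among all cells (left) and among C1q macrophages (right), in percent, in the library of each age, under the rule with at most 1 Cd3 count (dark) and the wider rule (light); bars are 95% exact binomial intervals for counting error. The share among C1q macrophages goes from 6.64% to 12.5% between 4 and 20 months under the rule and from 7.07% to 15.8% under the wider one, while the share among all cells at 12 months lies below that at 4 months only under the rule.

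The third comparison was of levels by age within the selected cells. Several of their higher genes stood level. Against 4 months the log2 ratio at 20 months was 0.07 (−0.19 to 0.34) for Cd81, −0.10 (−0.31 to 0.11) for Selenop and 0.03 (−0.38 to 0.45) for Hpgds, each with an interval that includes 0. Apoe was at 8189 (7869.8 to 8518), 7039 (6599 to 7500.4) and 9623 (9356 to 9896) CPM at the 3 ages, highest at 20 months and lowest at 12, with a log2 ratio of 0.23 (0.16 to 0.30) at 20 months. In other C1q macrophages the same genes were higher at 20 months, by 0.63 (0.43 to 0.82) for Cd81, 0.76 (0.63 to 0.89) for Selenop and 0.80 (0.76 to 0.84) for Apoe. In T cells Apoe was at 253, 399 and 523, so the background of this gene was also higher with age. Whether the age differences of the cell groups differ from each other was not tested.

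Trem2 was at 218 (168 to 277), 236 (162 to 334) and 324 (276 to 377) CPM at 4, 12 and 20 months, with a log2 ratio of 0.57 (0.15 to 1.01) at 20 months. Under the wider rule its levels were 228, 193 and 226 and the ratio was −0.01 (−0.22 to 0.20), with an interval that includes 0. In other C1q macrophages the ratio of Trem2 was 1.09 (0.83 to 1.36). Cd63 had 0.31 (0.08 to 0.54) under the rule and −0.25 (−0.36 to −0.14) under the wider one, with opposite signs.

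Ccl7, Plac8, Ctsb and Grn had lower levels at 20 months. Of 12 chemokine genes 2 and of 18 lysosomal genes 1 were 1.5-fold or more lower, against 14.7% of all genes, so neither list stood out. Ccl7 stood at 1069, 1219 and 753 CPM, a log2 ratio of −0.51 (−0.72 to −0.29) at 20 months, and at 1324, 1146 and 739 under the wider rule. Plac8 stood at 852, 606 and 577, a ratio of −0.56 (−0.81 to −0.32). Ctsb had −0.32 (−0.43 to −0.20) and Grn, progranulin, −0.42 (−0.59 to −0.25). Each of these 4 intervals lay below 0, under the wider rule too, and none of the 4 differences reached 1.5-fold under the first rule. Ccl7 and Plac8 were lower at 20 than at 4 months in other C1q macrophages too, and Plac8 also in T cells.

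Few interferon response genes passed the fold at 20 months. Of 15, 3 were 1.5-fold or more lower and 1 higher, with a median log2 ratio of −0.43 against −0.05 over all 6245 genes of at least 20 CPM, of which 782 (12.5%) were higher and 915 (14.7%) lower by that fold. These counts lie near the share over all genes. Isg15, a ubiquitin-like interferon-induced protein, stood at 1267 (1144 to 1401), 872 (721 to 1044) and 879 (799 to 964) CPM and Rsad2, viperin, at 347 (283 to 419.5), 443 (338 to 570.4) and 206 (168 to 249). In other C1q macrophages Isg15 was at 1803, 1465 and 1545 and Rsad2 at 371, 305 and 424, and in T cells at 1198, 948 and 973 and 332, 222 and 235. The list's median was −0.35 under the wider rule, with 2 genes lower and none higher, and −0.05 in other C1q macrophages. T cells thus had lower levels of both genes at 20 than at 4 months, and the part of free RNA in this result was not tested.

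The counts of other lists at 20 months are read against the 12.5% of all genes that were higher and 14.7% that were lower. Of 8 MHC class II genes 1 was lower at 20 months and none higher (median log2 −0.18), of 18 lysosomal genes 1 was higher and 1 lower (−0.10), and of 18 lipid handling genes 4 were higher and 3 lower (0.22). Of 11 secreted growth and matrix factors none was higher and 5 lower (−0.36). Of 6 monocyte markers 3 were lower (−0.66), of 11 immediate early genes 3 (−0.34), and of 8 inflammatory cytokine genes 2 were higher (0.26), with none the other way. Among 14 macrophage transcription factors 4 were higher and 2 lower (0.21), and among 10 efferocytosis genes 3 and 1 (−0.18). The chemokine, tetraspanin, eicosanoid, complement, adhesion, iron, hypoxia, receptor and T cell ligand lists held at most 2 genes past the fold in either direction. Of 4 NK cell markers 3 were lower (−0.84), among them Gzma at 165, 111 and 78.4 CPM against 907, 684 and 399 in T cells, where the level was also lower with age.

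The differences at 12 months rest on 19 cells. There 1290 genes (20.7%) were 1.5-fold or more higher than at 4 months and 1061 (17%) lower, and 4.9% and 3.91% under the wider rule with its 183 cells. At 20 months the wider rule gave 231 (3.7%) and 248 (3.97%) over the same 6245 genes. With genes of at least 200 CPM only, chosen after the data had been seen, 15 of 819 (1.83%) were higher and 23 (2.81%) lower at 20 months, and 25 (3.05%) and 41 (5.01%) at 12 months. The share of genes past 1.5-fold by age was thus lower among genes of higher level and under the wider rule.

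The genes of the 20-month comparison were named after their values had been seen. Of the 15 higher ones, 4 were mitochondrially encoded and 7 were ribosomal protein genes or their pseudogenes, of 11 and 108 such genes among the 819, with no list for either. Examples were mt-Nd1, at 848, 1115 and 1328 CPM, and Rps4x, at 855, 1064 and 1332. In T cells mt-Nd1 stood at 1013, 1055 and 1196 and Rps4x at 1336, 1469 and 1959. The median mitochondrial share of counts in the selected cells was 1.92%, 2.23% and 2.58%. The 23 lower genes included the interferon-induced Oasl1, at 379.6, 310.2 and 202, and the cell cycle inhibitor Cdkn1a, at 340.0, 318 and 186, which in other C1q macrophages stood at 643, 470.1 and 307. In T cells Oasl1 was at 164, 123 and 110.4 and Cdkn1a at 188, 165 and 120.0. The 23 also held Gm47854, at 6.60, 1654 and 3.92 in the selected cells. This gene reached 200 CPM on average only through the 12-month library, and the interval of its log2 ratio was −4.54 to 3.04. All 15 higher and all 23 lower genes went the same way in T cells. In other C1q macrophages 14 of the higher and 18 of the lower ones did. The direction of most of these differences was thus not particular to the selected cells, but their sizes were not compared. The lower gene Arhgap15 had a log2 ratio of −0.90 in the selected cells and −0.02 in T cells, and Cdkn1a −0.87 and −0.65. Library and age cannot be told apart.

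The 20 genes with the largest ordered changes from 4 to 20 months mostly came from single cells. In 14 of them 1 cell gave over 50% of the counts in the library where the gene was high, 4 of the genes higher at 20 months (Cadps2, Gm27169, Septin11 and Cd36) and all 10 that were lower (among them Wwtr1, Ptpn13, Sult2a-ps4, Gm3892, Ipmk, Gm7437, Eya4, Kmt5b and Cfap97). Gdf3, a TGF-beta family ligand made by macrophages, was spread over more cells, with counts in 4, 4 and 21 cells at 29.7 (13.6 to 56.4), 126 (73.1 to 201) and 204 (167 to 247) CPM. Its log2 ratio at 20 months was 2.78 (1.80 to 3.95), and 0.56 (0.25 to 0.89) under the wider rule, while other C1q macrophages had −0.05 (−0.36 to 0.26). Tfec, a transcription factor of the MITF family, was found in 1, 3 and 13 cells, at 3.30, 22.2 and 35.3, and Glb1, lysosomal beta-galactosidase, in 2, 3 and 20 cells, at 6.60, 22.2 and 49. For Id3, Insig1, Tfec and Glb1 the 4-month level rests on 1 or 2 counts, so the size of their difference is poorly known. Under the wider rule the log2 ratio at 20 months was 0.23 (−0.77 to 1.38) for Id3 and 0.51 (−0.42 to 1.58) for Insig1. It was 1.09 (0.09 to 2.27) for Tfec and 0.21 (−0.35 to 0.81) for Glb1, so only the interval of Tfec left out 0.

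**Figure D5:**
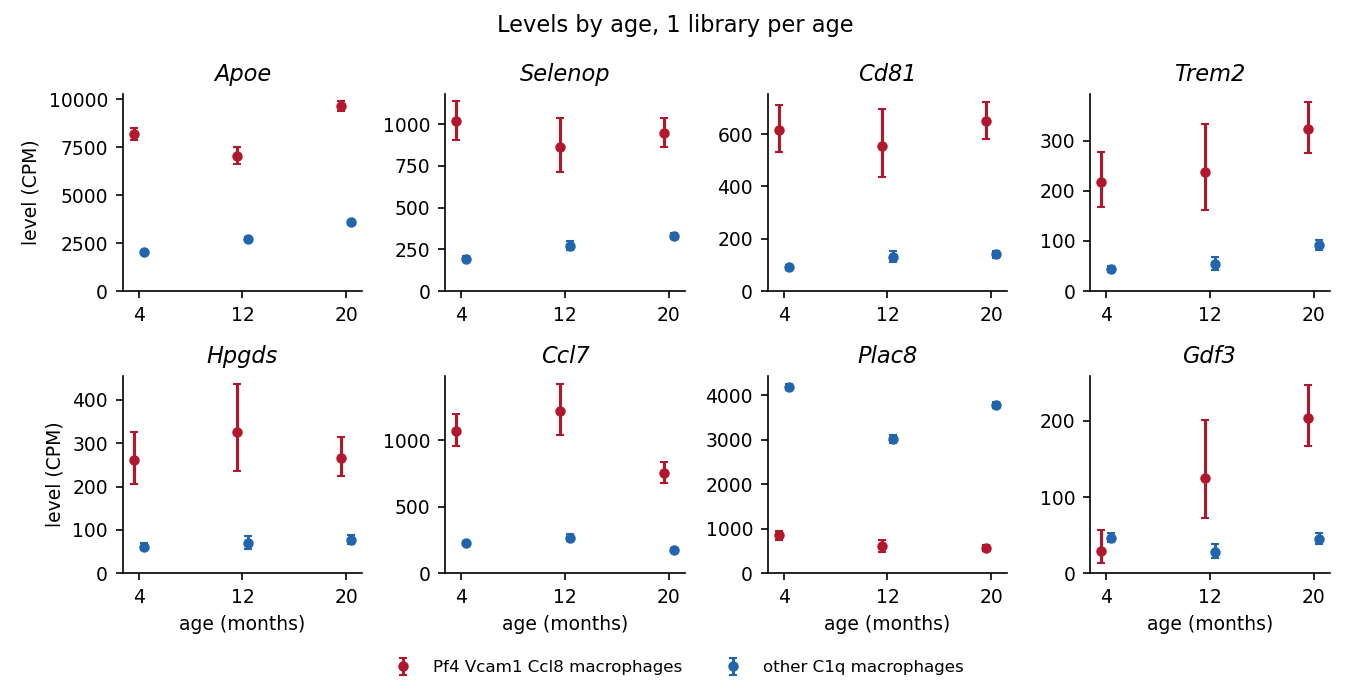
Levels (CPM, linear axes from 0) of 8 genes at 4, 12 and 20 months in Pf4 Vcam1 Ccl8 macrophages and other C1q macrophages, 1 library per age, with 95% exact Poisson intervals for counting error. Cd81, Selenop and Hpgds stay level in the selected cells, Apoe, Selenop and Cd81 step up in the others, Ccl7 and Plac8 are lower at 20 than at 4 months in both, and Gdf3 is higher at 20 months in the selected cells.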

How the data were processed

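The deposited files held whole-number counts per gene and cell for 55401 genes, 1 matrix per age, and the submitters' processing notes name STAR 2.7.10a and the build GRCm38 without saying how they were used. The counting program, the annotation, how barcodes were called as cells and whether doublets were removed are not given in the sources used here. The libraries held 14393, 14653 and 14684 cells and 110371225, 127850782 and 119873564 counts, and 54349 of the gene identifiers (98.1%) occurred in GENCODE M21.

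Cells were chosen on raw counts and not clustered, all deposited cells were kept, and the 6% with the highest Scrublet score (scanpy 1.11.5) were left out only as an alternative. The members and gene lists were chosen with earlier results of these data known. Counts were summed per library and group and divided by the group's total to give CPM, in Python 3.11.15 with numpy 2.4.6, pandas 2.3.3 and scipy 1.17.1, and scripts were tested on simulated data. Poisson and binomial intervals are exact at 95%, and ratio intervals come from the conditional binomial. With 1 library per age no p-value was computed. Genes of at least 20 CPM on average over the groups compared were used, and a gene counted as higher or lower at 1.5-fold.

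Named by rule were the 33 lists, the 15 genes with the largest smallest-over-libraries excess over other C1q macrophages and the 10 most opposite. Also named were the 10 largest differences each way from 4 to 20 months with 12 months between, at least 2 times the T cell level in the higher library, and not 4-fold or more the same way in T cells. In all 20 alternatives were computed. Those of C1q at least 5 times Cd3 and of at least 200 CPM were added after the data had been seen. Some genes of the lists and of the naming rule are not reported here.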

Additional observations from a re-analysis of the deposited data

Results flagged for a closer look

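In 6 genes the level moved one way from 4 to 20 months in Pf4 Vcam1 Ccl8 macrophages and the other way in other C1q macrophages, each with an interval that leaves out 0. The difference between the cell groups was not tested for any of them. Mertk, a receptor for apoptotic cells, had a log2 ratio of −1.47 in the selected cells, at 92.4, 96 and 33.3 CPM at 4, 12 and 20 months, and of 0.75 in the others, at 17.5, 19.6 and 29.4. Under the wider rule its levels were 65, 59.9 and 49.1, a ratio of −0.40 (−0.80 to 0.01). Lpl, lipoprotein lipase, had 1.36 against −1.66, with 66.1% of its counts at 20 months from 1 cell and a ratio of −0.20 (−0.72 to 0.36) under the wider rule. Cd36, a fatty acid receptor, had 2.87 against −1.51 with no count in the selected cells at 4 months, and 1 cell gave 94.6% of its counts at 20 months. Septin11 had 2.99 against −0.62, with 70.0% of its counts at 20 months from 1 cell. The pseudogene Sult2a-ps4 had −4.45 against 0.92, with all its counts at 4 months from 1 cell. The transcript 1700016L21Rik had 4.12 against −2.49, with no count in the selected cells at 4 months. Under the wider rule it stood at 99.9, 13.3 and 48.2 CPM with a ratio of −1.05 (−1.39 to −0.70), so the opposite direction was not seen there, and Septin11 had 0.15 (−0.55 to 0.90). For Cd36 and 1700016L21Rik the 4-month level, and for Sult2a-ps4 the 20-month level, was 0 and was set at 3 counts, so that their ratios are bounds on the size of the difference.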

How the results depend on the processing

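Of 20 alternatives, those on the choice of cells and on low levels moved values most. The cause was not tested where a value moved. The share of all cells differed from 4 months by −0.169 points at 12 months and 0.178 at 20 months. It differed by 0.0750 and 0.571 with cells chosen on counts thinned to 3500, and by 0.436 and 1.90 with C1q at least 5 times Cd3. The 20-month difference in the share of C1q macrophages, 5.89 points, was 2.08 with the limit on Vcam1 and Ccl8 alone. No paired analysis was possible because each age had 1 library.

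Counts of genes past 1.5-fold moved with the level asked of a gene, which also sets how many genes are compared. At 20 months 12.5% of 6245 genes were higher and 14.7% lower at 20 CPM, and 1.83% and 2.81% of 819 at 200 CPM. Against other C1q macrophages 2.58% of 6202 genes were higher and 2.27% lower at 20 CPM, and 2.58% and 3.08% of 813 at 200 CPM. At 12 months 1290 higher and 1061 lower genes became 815 and 523 with thinned counts, 277 and 249 under the wider rule with genes chosen anew by level, 408 and 380 at 50 CPM, 2650 and 1822 at 5 CPM, and 25 and 41 at 200 CPM. Lower genes numbered 629 once the T cell level was subtracted, of only 2519 of 6245 genes that kept a value. At 20 months 782 higher and 915 lower genes became 1329 and 1440 with Vcam1 and Ccl8 alone, 214 and 235 under the wider rule, 224 and 300 at 50 CPM, 2038 and 2223 at 5 CPM, and 15 and 23 at 200 CPM, and lower genes numbered 493 with thinned counts. Against other C1q macrophages 160 higher and 141 lower genes became 76 and 73 at 50 CPM, 318 and 212 at 5 CPM, 259 and 77 with the T cell level subtracted, of only 1615 of 6202 genes that kept a value, and 21 and 25 at 200 CPM. Lower genes numbered 217 with C1q of 5 or more, 91 with thinned counts and 86 under the wider rule. Without the 10 highest cells of each gene, which leaves 9 of 19 cells at 12 months, the counts were 9 and 1705 at 12 months, 2056 and 218 at 20 months and 2 and 1995 against other C1q macrophages. That setting moved the median log2 ratio of all genes by age from −0.05 to 0.57.

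Without those 10 cells the smallest log2 excess turned to −1.69 for Ccl7, −0.11 for Cd81 and −1.20 for Trem2, and the median of iron genes to −0.37. The 20-month median turned to 0.15 for monocyte markers and 0.42 for B cell markers, which had 0.028 with a selecting sum of 2. Fibroblast markers had −2.33 with C1q of 5 or more. Of genes by age, thinned counts gave −1.28 for Cadps2, −0.020 for Id3, 1.03 for Ipmk, 0.44 for Gm7437 and 1.56 for Cfap97. The wider rule gave −1.53 for Cadps2 and −1.05 for 1700016L21Rik, C1q of 5 or more gave −1.53 for Id3, and Pf4 with Ccl8 alone gave 2.69 for Cfap97. Of 478 values of named genes against other C1q macrophages 423 stayed within the 95% counting interval of the reported value, and of 353 by age 307 did. A count of 0 in the selected cells allows a level of up to 9.90, 22.2 and 5.88 CPM at the 3 ages, taken as 3 counts.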
